A study of Homo sapiens with 3 samples.

Results

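The kinesin motor genes were taken as every gene-annotated cluster whose gene name is KIF followed by digits and at most 1 letter with an optional digit, in 3 PAR-CLIP libraries for which MATR3 was precipitated with an antibody. This rule gave 1110 of 388807 clusters, 357 of them in replicate 1, 394 in replicate 2 and 359 in replicate 3, and they carried 30 gene names. The libraries were biological replicates of wild-type HEK293 cells, an established line derived from human embryonic kidney, labelled as untreated and with Kidney as the tissue. Since all belong to 1 group and no control library is included, members could be compared only with each other, with other genes and between replicates. The RNA-seq named in the study's design is not analysed here.

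Kinesins are motor proteins that use ATP to move along microtubules or to take them apart. In the cell body and in axons they carry vesicles, mitochondria and protein complexes, in cilia they drive transport towards the tip, and in dividing cells they separate the spindle poles, align the chromosomes and complete cell division. MATR3 (matrin 3) is a nuclear protein with RNA recognition motifs and zinc fingers that binds pyrimidine-rich RNA, much of it in introns, and acts on splicing. In PAR-CLIP a photoreactive uridine analogue is built into RNA and crosslinked to the bound protein, and each crosslink is read as a T-to-C change. A cluster is a stretch of overlapping reads with such changes. Clusters measure crosslinked RNA and depend on how much of each transcript a cell holds, and no measure of transcript abundance was used here.

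The deposited clusters numbered 133088, 131679 and 124040 in replicates 1, 2 and 3 and held 1649124, 1506682 and 1532602 reads. The kinesin clusters held 3922, 4260 and 4252 reads and made up 0.311%, 0.344% and 0.331% of the gene-annotated clusters by number. Every cluster in the tables had at least 4 reads, 4 reads with T-to-C, 2 conversion locations and 20 nt, so weaker sites were not detectable. The total depth of the libraries is unknown, and reads without molecular identifiers can be copies of 1 molecule. The median kinesin cluster had 9, 8 and 9 reads in replicates 1, 2 and 3, the same as the other gene-annotated clusters, and 3 distinct reads. Marker genes did not settle the cell label from clusters. Of 6 genes typical of HEK293 cells (PAX2, LHX1, NEFM, NEFL, INA and VIM) 0 had a cluster in every replicate and 2 had none, with summed normalised reads from 4.42 to 18.1 per replicate. Of 8 genes of kidney tubules and podocytes 7 had no cluster, and SLC12A3 had 1 in replicate 2.

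The following kinesin sites are shown because they were among the most heavily read of those with clusters in every replicate, or because they held the cluster with most reads in a replicate. Sequences are from the deposited clusters or the same stretch of hg38, written 5′ to 3′ on the RNA strand with T for U. Capitals mark ATCTT, which is AUCUU in RNA and a known MATR3 motif, and TCTTC, both searched on the RNA strand only. TCTTC was taken from an earlier account of these data, and both motifs can overlap by 4 bases in ATCTTC.
KIF1A intron 38, upstream site, chr2:240728243-240728506, minus strand: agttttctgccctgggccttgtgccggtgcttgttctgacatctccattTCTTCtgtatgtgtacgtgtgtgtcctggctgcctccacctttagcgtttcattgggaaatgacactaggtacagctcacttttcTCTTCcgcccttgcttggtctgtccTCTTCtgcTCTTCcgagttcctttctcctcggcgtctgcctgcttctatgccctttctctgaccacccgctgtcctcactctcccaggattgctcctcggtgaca
KIF1A intron 38, downstream site, chr2:240728109-240728241, minus strand: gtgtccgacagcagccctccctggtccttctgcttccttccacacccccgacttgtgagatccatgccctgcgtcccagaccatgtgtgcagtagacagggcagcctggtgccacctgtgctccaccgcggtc
KIF2A intron 1, chr5:62327479-62327671, plus strand: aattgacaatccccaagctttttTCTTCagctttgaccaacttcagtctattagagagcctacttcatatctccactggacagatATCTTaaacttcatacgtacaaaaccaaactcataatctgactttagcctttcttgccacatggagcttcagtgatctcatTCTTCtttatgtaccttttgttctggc
KIF11 intron 10, chr10:92628327-92628404, plus strand: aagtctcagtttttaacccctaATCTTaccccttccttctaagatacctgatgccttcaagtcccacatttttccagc
KIF1B intron 22, chr1:10309900-10310010, plus strand: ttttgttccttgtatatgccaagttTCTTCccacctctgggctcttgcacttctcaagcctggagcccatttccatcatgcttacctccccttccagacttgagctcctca
KIF15 intron 1, chr3:44762048-44762135, plus strand: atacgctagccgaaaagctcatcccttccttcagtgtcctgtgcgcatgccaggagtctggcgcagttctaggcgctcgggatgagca
KIF5B intron 2, chr10:32044806-32044993, minus strand: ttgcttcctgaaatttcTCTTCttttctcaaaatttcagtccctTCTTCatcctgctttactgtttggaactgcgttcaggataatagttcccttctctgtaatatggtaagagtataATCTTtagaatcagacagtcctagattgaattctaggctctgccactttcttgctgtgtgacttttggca
All of them lie in introns of the canonical GENCODE 44 transcript. Of the 7 stretches, 5 contained at least 1 motif, and the KIF2A and KIF5B stretches contained each of them, and the upstream KIF1A site held 4 copies of TCTTC. The stretches were 78 to 264 nt long, and no background share was computed for such lengths, so these counts do not show enrichment.

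The family was widely present among the clusters. Of 39 protein-coding kinesin genes under the rule, 24 (61.5%) had a cluster in all 3 replicates, 3 had clusters in 2 replicates, 3 in 1 and 9 in none. Over all 20020 protein-coding genes, 40.7% had a cluster in every replicate. Kinesin genes were longer, with a median span of 56.2 kb against 27.4 kb for all protein-coding genes, and longer genes offer more sequence for clusters. KIF13B, KIF20A and KIF26A lacked clusters in replicate 3, KIF3C and KIF17 had clusters in replicate 3 alone, and KIF5A in replicate 2 alone. KIF12, KIF19, KIF21B, KIF25, KIF26B, KIF27, KIF2B, KIF4B and KIF6 had none, and neither had the pseudogene KIF28P. These included the longest genes of the family, KIF26B with a span of 554 kb and KIF6 with 395 kb. They also included the shortest, KIF2B with 2.27 kb and KIF4B with 4.39 kb, which have no annotated introns.

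Kinesin-3 genes, most of which code for long-range carriers of vesicles and organelles, held the largest share of the signal. Reads were scaled to 1000000 reads in gene-annotated clusters of the same replicate and are called normalised reads here. The 7 kinesin-3 genes together had 1102, 1312 and 1523 normalised reads in replicates 1, 2 and 3, all above the other classes of the family, and 6 of the 7 had clusters in every replicate. KIF1A and KIF1B supplied most of this sum, with means of 683 and 370 beside a class mean of 1312. The next gene of the class, KIF13A, had a mean of 79.7. The kinesin-4 genes, which include the chromosome-bound motor KIF4A, followed with 387, 442 and 412. The kinesin-6 genes, which act in cell division, had 308, 228 and 366, the microtubule-depolymerising kinesin-13 genes 281, 328 and 199, and KIF11 as the single kinesin-5 gene 162, 217 and 203. The kinesin-4 values were above all of those that follow, while the kinesin-6 and kinesin-13 values overlapped. The kinesin-1 genes, the conventional carriers of cargo along axons, had 115, 179 and 139.8, and the kinesin-2 genes, which drive ciliary transport, 58.7, 128 and 110.4. These are sums over genes of different number and length and do not compare levels per gene.

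KIF1A led the family. It codes for a fast carrier of synaptic vesicle precursors and dense-core vesicles in neurons, and spans chr2:240713761-240824293 on the minus strand (hg38). Its normalised reads were 553, 622 and 875 in replicates 1, 2 and 3 (683 ± 169, SD, n = 3), and its clusters numbered 67, 60 and 79. All 3 values were above every value of the next gene in total reads, KIF1B. KIF1A made up 22.6% of kinesin reads ± 4.68 (SD, n = 3) and stood at rank 83 by normalised reads among 11165 protein-coding genes with a cluster in any replicate. KIF1A, KIF1B and KIF4A together held 46.8% of kinesin reads ± 4.53 (SD, n = 3).

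KIF1B, which codes for a carrier of mitochondria and synaptic vesicle precursors at chr1:10210570-10381603, had 273, 437 and 401 normalised reads (370 ± 86.2, SD, n = 3) in 43, 55 and 46 clusters. KIF4A, a chromosome-bound motor of the mitotic spindle midzone at chrX:70290104-70420886, had 353, 384 and 351 (363 ± 18.5, SD, n = 3) in 39, 50 and 45 clusters. The KIF4A values lay inside the range of KIF1B, and all of them were above those of KIF11.

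Genes of the mitotic spindle filled most of the following places. KIF11, the motor that pushes spindle poles apart, had 162, 217 and 203 normalised reads. KIF2A, a microtubule depolymerase, had 199, 215 and 120, and KIF23, which bundles microtubules at the midzone for cytokinesis, had 130, 148 and 219. KIF20B, also a cytokinesis motor, had 171, 73.8 and 147. These 4 genes overlapped one another over the replicates, and the high replicate was not the same one for all of them. KIF5B, the ubiquitous conventional kinesin heavy chain, had 65.6, 149 and 109.6. KIF18A, which dampens chromosome movements at the spindle equator, had 119, 139 and 60.3, and KIF13A, a carrier of endosomal cargo, had 60.8, 77.6 and 101. Across the 30 members with clusters, Spearman's rho of normalised reads between pairs of replicates lay between 0.867 and 0.899, as a description over genes that share a library.

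**Figure D1:**
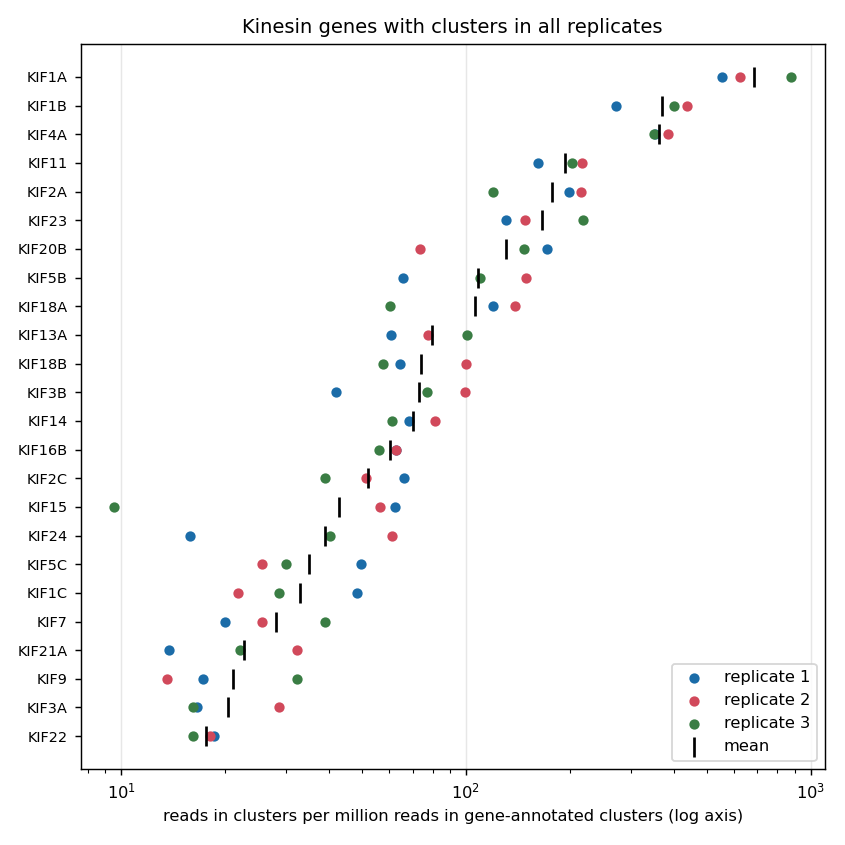
Reads in clusters per 1000000 reads in gene-annotated clusters (log axis) for the 24 kinesin genes with clusters in all replicates, with a point for each replicate and a bar for the mean. KIF1A lay between 553 and 875 and did not overlap KIF1B, while KIF22 at the bottom lay between 16.2 and 18.6.

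Genes of different length were also compared per length. Expected clusters rose less than in proportion to span, from 3.30 for the 9.01 kb of KIF20A to 17.9 for the 301 kb of KIF16B. Values per 100 kb therefore favour short genes, and the order below is not adjusted for this. On the scale of normalised reads per 100 kb of gene span, KIF1A had 500.4, 563 and 792 (618 ± 153, SD, n = 3), KIF23 382, 434 and 639 (485 ± 136, SD, n = 3), and KIF18B, a partner of the depolymerases at microtubule tips, 278, 434 and 249 (320 ± 99.6, SD, n = 3). KIF4A followed with 277 ± 14.2 and KIF11 with 239 ± 34.9 (SD, n = 3). Of neighbours in this order among the 24 genes with clusters in every replicate, 2 pairs did not overlap over the replicates, KIF4A above KIF11 and KIF14 above KIF7. All other neighbours did not differ beyond their spread. The lowest of the 24 was KIF21A, a motor of axons and growth cones, at 15.2 ± 6.19 (SD, n = 3).

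Cluster density gave a similar set of leading genes. Among genes with at least 3 clusters in every replicate, the 5 densest were KIF1A with 60.6, 54.3 and 71.5 clusters per 100 kb, KIF23 with 38.0, 55.6 and 52.7, KIF18B with 34.7, 60.7 and 30.3, KIF4A with 29.8, 38.2 and 34.4, and KIF11 with 30.8, 29.5 and 30.8. KIF1A and KIF23 overlapped in this measure. The median over the 30 members was 10.9 clusters per 100 kb, against 13.3 over all 11165 protein-coding genes with a cluster, and the members ranged from 0.617 in KIF17 to 62.1 in KIF1A. By density KIF1A stood at rank 1062 of these genes. The median densities are not adjusted for span, which had a median of 63.3 kb for members with clusters and 40.0 kb for all genes with clusters. Relative to the number expected from span, the members were not lower, with a median log2 ratio of -0.57 against -0.66.

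Each member's cluster number was tested against the mean fitted to genes of its span with edgeR's quasi-likelihood F-test. Benjamini-Hochberg adjustment was over 11165 protein-coding genes. The test uses the spread between replicates, so a call does not place a member outside the spread of genes of its span. Of 30 members, 7 held more clusters than expected (23.3%, against 23.5% of all genes tested) and 14 held fewer (46.7%, against 43.4%). The shares are near the background and are not a result about the family. The median log2 ratio of observed to expected clusters was -0.57 for members and -0.66 for all genes tested, so most genes lay below the fitted mean. With a fold of at least 2 either way, 4 members held more and 13 fewer, where 15.05% and 39.1% of all genes did.

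The 4 members with at least a 2-fold excess were KIF1A, KIF1B, KIF4A and KIF23. KIF1A held 68.7 clusters ± 9.61 (SD, n = 3) where 15.5 were expected from its span, a 4.44-fold ratio (log2 2.15, SE 0.13, edgeR adjusted p = 4.37e-14). KIF1B held 48.0 ± 6.24 (SD, n = 3) where 17.2 were expected, a 2.80-fold ratio (log2 1.48, SE 0.14, edgeR adjusted p = 1.33e-09). KIF4A held 44.7 ± 5.51 (SD, n = 3) against 16.2, a 2.75-fold ratio (log2 1.46, SE 0.15, edgeR adjusted p = 3.58e-09). The excess was present in each replicate for all 3 genes. KIF23 held 13, 19 and 18 clusters where 8.04 were expected, a 2.07-fold ratio (log2 1.05, SE 0.23, edgeR adjusted p = 0.000301). Without replicate 2 the KIF23 adjusted p was 0.0550 by the same test, at a log2 ratio of 0.92.

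Smaller excesses were called for KIF11, KIF2A and KIF18B. KIF11 held 25, 24 and 25 clusters against 13.7 expected (log2 0.84, SE 0.19, edgeR adjusted p = 0.000296). The KIF11 call was lost with clusters of at least 10 reads (log2 0.38, adjusted p = 0.248) and of at least 3 distinct reads (0.53, adjusted p = 0.0521). Its annotated span begins 19.0 kb before the canonical transcript, and that stretch held 0 clusters. KIF2A held 25, 24 and 15 clusters against 14 (log2 0.61, SE 0.20, edgeR adjusted p = 0.0112), and its call was lost without replicate 1 (adjusted p = 0.221) and without replicate 2 (0.187). In all it was lost in 7 of 12 alternatives, among them clusters of at least 10 reads (0.216) and of at least 3 distinct reads (0.148). KIF18B held 8, 14 and 7 clusters against 6.05 (log2 0.68, SE 0.29, edgeR adjusted p = 0.0422), and its call was lost when any 1 replicate was left out, with an adjusted p of 0.164, 0.557 and 0.0977 without replicates 1, 2 and 3. The KIF18B call was lost in 9 of 12 alternatives in all.

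The 13 members that fell short of expectation by at least 2-fold came from several classes. Among the carriers were KIF5C, a neuronal conventional kinesin with 7, 5 and 6 clusters where 16.8 were expected, and KIF21A with 3, 5 and 3 where 16.8 were expected. Their log2 ratios were -1.49 (SE 0.27, edgeR adjusted p = 3.11e-05) and -2.19 (SE 0.31, edgeR adjusted p = 9.47e-07). KIF13B, a kinesin-3 carrier, held 7, 2 and 0 clusters where 17.5 were expected (log2 -2.54, SE 0.38, edgeR adjusted p = 2.11e-06), and without replicate 2 its adjusted p was 0.0587, at a log2 ratio of -2.36. KIF3A, a motor subunit of ciliary kinesin-2, held 2, 4 and 2 clusters where 9.76 were expected (log2 -1.87, edgeR adjusted p = 0.000175), and by DESeq2 its adjusted p was 0.0578 at a log2 ratio of -1.88.

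Of members with a role in cilia or their signalling, KIF7, a ciliary tip protein of Hedgehog signalling, held 3, 5 and 4 clusters where 11.03 were expected (log2 -1.46, edgeR adjusted p = 0.000358), and KIF24, a depolymerase of the mother centriole, 3, 5 and 5 where 13.4 were expected (log2 -1.63, edgeR adjusted p = 5.77e-05). KIF9, a kinesin-9 motor known from motile cilia, held 2, 2 and 5 clusters where 11.2 were expected (log2 -1.90, edgeR adjusted p = 7.95e-05). All 3 fell short of the expected number in every replicate, and by DESeq2 the adjusted p of KIF7 was 0.0625 at a log2 ratio of -1.47. The expected number of KIF7 rests on an annotated span of 54.3 kb, and its canonical transcript is much shorter. Intron 11 of that transcript, with 8.32 kb, made up 36.3% of its intron length. A shorter span would lower the expected number, and the KIF7 shortfall on the canonical transcript alone was not tested. KIF15, a spindle motor that works beside KIF11, held 6, 10 and 2 clusters where 15.5 were expected (log2 -1.37, edgeR adjusted p = 0.000292). Without replicate 1 the KIF15 adjusted p was 0.0599, at a log2 ratio of -1.40.

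The remaining 5 had few clusters. KIF26A, a kinesin-11 protein that lacks ATPase activity, held 2, 7 and 0 clusters where 9.68 were expected (edgeR adjusted p = 0.00143). That call was lost without replicate 1 (0.133), without replicate 3 (0.0747), with reads in place of clusters (0.0652) and by DESeq2 (0.0968). KIF20A, a cytokinesis motor, held 1, 1 and 0 clusters where 3.30 were expected (edgeR adjusted p = 0.0284), lost when any 1 replicate was left out (0.0987, 0.135 and 0.125). The KIF20A call was also lost with reads in place of clusters (0.272) and by DESeq2 (0.391). KIF3C held 2 clusters in replicate 3, and KIF17 and KIF5A held 1 each, where 11.3, 11 and 9.09 were expected per replicate. Their ratios rest on 1 or 2 clusters in all and are not given as folds, and their calls were lost by DESeq2 and with reads in place of clusters. KIF16B, an endosomal carrier, was below expectation by less than 2-fold with 13, 13 and 9 clusters where 17.9 were expected (log2 -0.61, SE 0.22, edgeR adjusted p = 0.0175). Its log2 ratio was near the median of all genes tested, -0.66. The KIF16B call was lost when any 1 replicate was left out (0.0776, 0.0574 and 0.0963 without replicates 1, 2 and 3, at log2 ratios of -0.72, -0.75 and -0.58). In all it was lost in 6 of 12 alternatives.

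**Figure D2:**
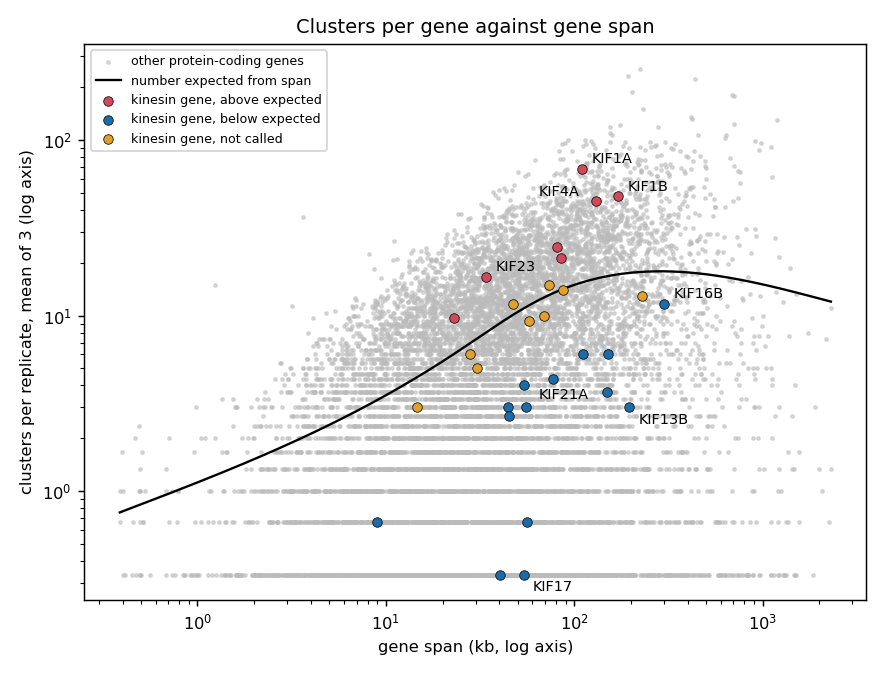
Mean clusters per replicate against gene span for 11165 protein-coding genes (grey, both axes log), with the number expected from span as a line and the 30 kinesin genes coloured by the edgeR call. KIF1A stood at 68.7 clusters against 15.5 expected, and 14 kinesin genes were called below the line.

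Kinesin clusters lay mostly in introns. By the authors' annotation, introns held 93.8%, 92.4% and 92.2% of them in replicates 1, 2 and 3 (92.8% ± 0.896, SD, n = 3). Clusters of other protein-coding genes were in introns in 87.9%, 87.3% and 87.0% of cases (87.4% ± 0.476, SD, n = 3), and the ranges did not overlap. This difference was not tested, and members with clusters also had longer spans, with a median of 63.3 kb against 40.0 kb for all protein-coding genes with clusters. Coding sequence held 11 kinesin clusters in all, and 13 of the 30 members had clusters in introns alone, among them KIF11 with 74, KIF2A with 64 and KIF18A with 42. Of the 12 clusters of KIF7, 4 carried another annotation class than intron, UTR or coding sequence.

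The 3′ UTR held 54 kinesin clusters, or 4.85% ± 1.05 (SD, n = 3), against 6.13% ± 0.430 in other protein-coding genes (SD, n = 3). They belonged to 10 genes, of which KIF1A, KIF1B, KIF1C, KIF3B and KIF18B had them in every replicate. KIF3B, the motor subunit that pairs with KIF3A in ciliary kinesin-2, had 3, 3 and 5 clusters there with 16, 59 and 74 reads, which made 11 of its 28 clusters. KIF1B had 4, 6 and 6 there with 47, 61 and 90 reads, and KIF1A had 2, 3 and 3 with 40, 42 and 58 reads. KIF3B was the member in which 3′ UTR clusters made the largest part among those with at least 3 clusters. Of the 54, 12 overlapped a cluster of another replicate and 0 were found in all 3.

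Within introns the clusters were spread unevenly. Introns here are those of the canonical transcript, so some counts differ from the authors' classes. KIF1B had 129 intron clusters and KIF18B 20 by this placement, against 126 and 18 by the authors' annotation. Clusters annotated as 3′ UTR inside KIF1B intron 22 are counted in both ways. In KIF1A, intron 1 held 97 of 197 intron clusters (31, 25 and 41 by replicate) on 22.9% of the total intron length of the canonical transcript. In KIF4A, intron 7 held 65 of 133 (22, 23 and 20) on 21.4% of the length. In KIF2A, intron 1 held 63 of 64 (24, 24 and 15) on 52.8% of the length. Each of these introns held clusters of all 3 replicates, with the widest range between replicates in KIF1A and KIF2A. All 64 clusters of KIF2A also lie inside an unnamed protein-coding gene model on the same strand, so the reads cannot be assigned to KIF2A alone; it was the only member with such an overlap in GENCODE 44.

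Other members had clusters packed into a single intron as well. In KIF14, a kinesin-3 protein of cytokinesis, intron 4 held 14 of 29 intron clusters (5, 6 and 3) on 8.70% of the length. In KIF20B, intron 31 held 13 of 43 (4, 3 and 6) on 5.68%. All 13 clusters of KIF24 lay in intron 1, with 25.1% of the length, and 23 of 39 clusters of KIF13A in intron 2, with 40.8%. KIF1B was more even, since its leading intron, intron 22, held 27 of 129 on 14.2% of the length. KIF18B went the other way, with 7 of 20 in intron 1 on 59.4%. These introns were picked for holding most clusters, which raises their share by choice. When each gene was divided into 3 equal parts, the part nearest its 5′ end held 46.5%, 44.7% and 40.1% of kinesin clusters (43.8% ± 3.29, SD, n = 3), above the middle part (27.6% ± 2.97) and the 3′ part (28.6% ± 1.83) in every replicate. The same shares are not given for other genes, so a lean particular to kinesin genes was not shown. KIF1A with 113 of 206 clusters, KIF4A with 68 of 134 and KIF2A with 43 of 64, which weigh heavily in the pooled shares, had most in the 5′ part. KIF1B, with 37, 60 and 47 clusters from the 5′ to the 3′ part, KIF11 with 16, 31 and 27, KIF23 with 14, 17 and 19, KIF20B with 10, 14 and 21 and KIF18B with 7, 0 and 22 did not. The parts are of the annotated span, and in KIF11 the 5′ part includes the 19.0 kb before the canonical transcript, with 0 clusters. Intron 1 of KIF11 held 29 of its 74 intron clusters on 22.4% of the length, so its count does not show a lack of 5′ lean within the transcript.

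**Figure D3:**
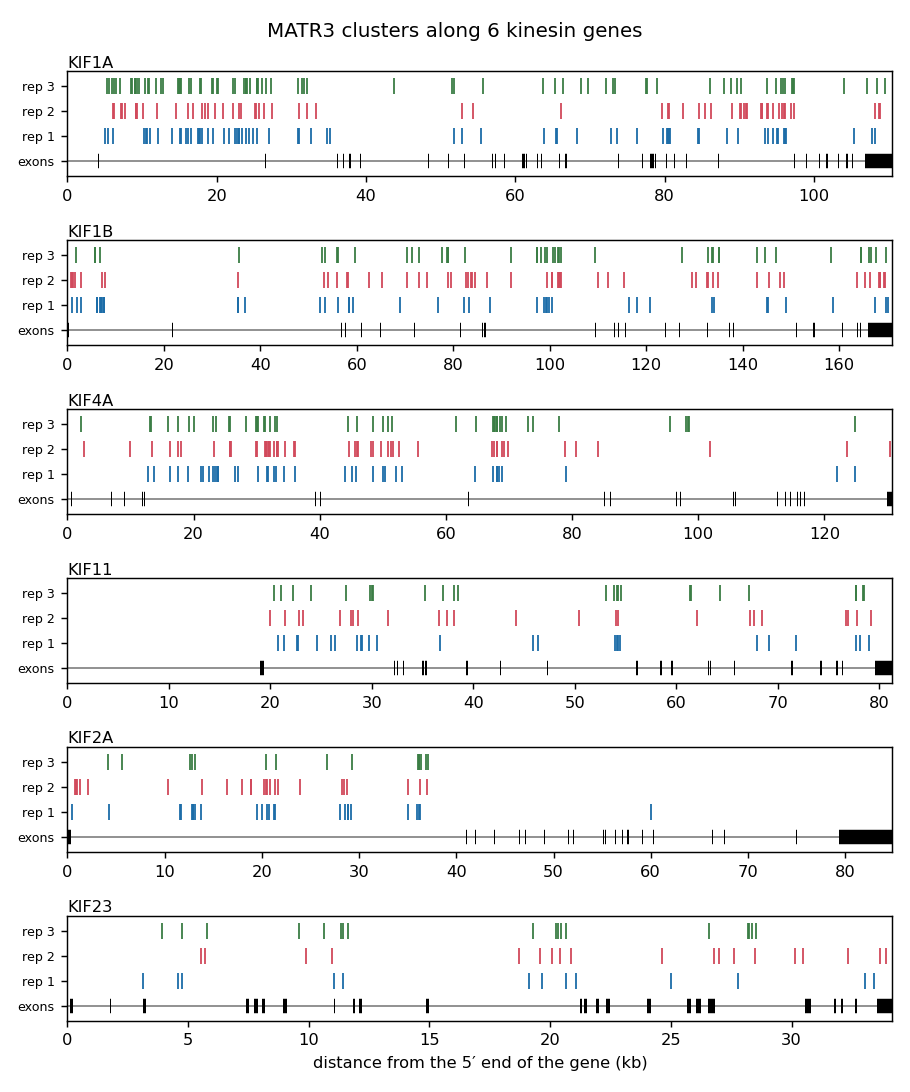
Clusters of replicates 1, 2 and 3 (ticks) by distance from the 5′ end of the gene in kb for 6 leading kinesin genes, with exons of the canonical transcript as black bars. KIF1A intron 1 held 97 of 197 intron clusters, KIF4A intron 7 held 65 of 133, and KIF2A intron 1 held 63 of 64.

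**Figure D4:**
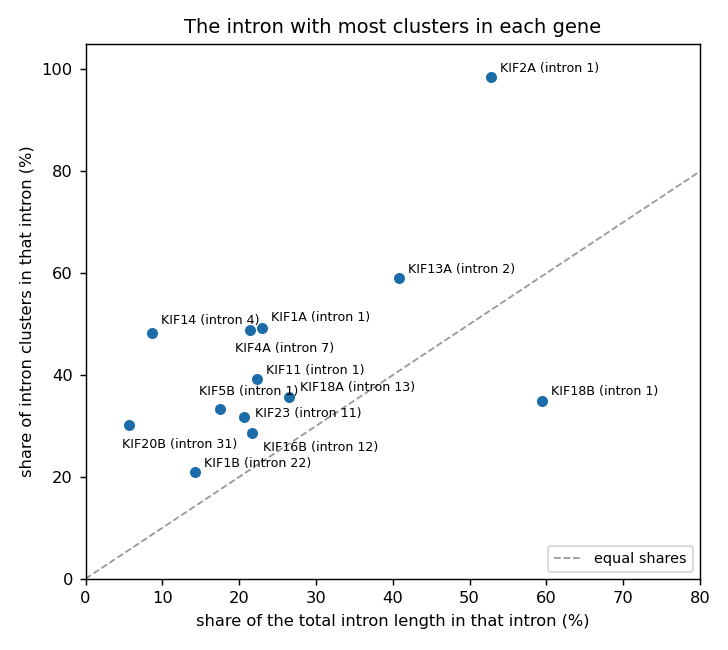
Share of intron clusters in the intron with most clusters against that intron's share of intron length, both in %, for kinesin genes with at least 20 intron clusters over the replicates (points), with equal shares as a dashed line. KIF14 intron 4 held 48.3% on 8.70% of the length, and KIF18B intron 1, with 35.0% on 59.4%, lay below the line.

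Recurrence of sites was limited. A kinesin cluster shared at least 1 nt, on its own strand, with a cluster of at least 1 other replicate in 24.1%, 21.3% and 22.01% of cases (22.5% ± 1.44, SD, n = 3). With positions shifted by 1000 nt in each direction, 11.6%, 10.7% and 10.2% did (10.8% ± 0.741, SD, n = 3). The share as called was above the moved share in all 3 replicates, by 11.7 percentage points ± 0.917 (SD, n = 3). For other gene-annotated clusters the shares were 21.7% ± 0.678 as called and 11.1% ± 0.336 moved (SD, n = 3), and the kinesin values overlapped them. Presence in both other replicates was seen for 2.44% ± 0.133 of kinesin clusters and 2.53% ± 0.0510 of the others (SD, n = 3).

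**Figure D5:**
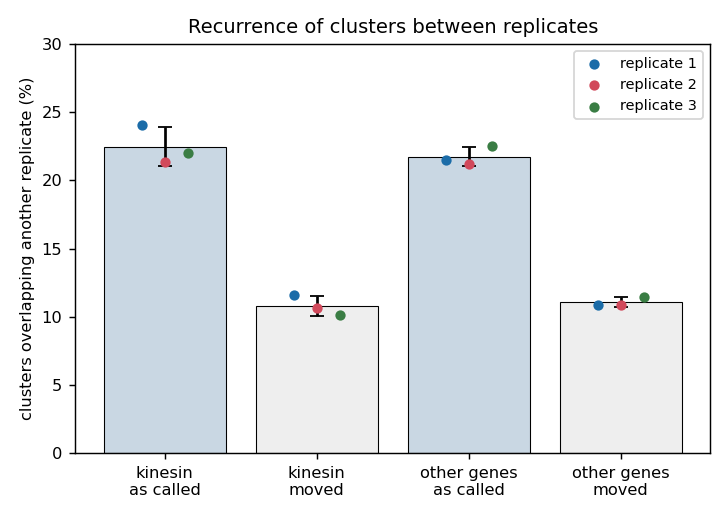
Percent of clusters that overlapped a cluster of another replicate, as called and after moving by 1000 nt, for kinesin genes and other gene-annotated clusters (bars are means, error bars SD, points the 3 replicates). Kinesin clusters stood at 22.5% as called and 10.8% moved, beside 21.7% and 11.1% for other genes.

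Joined over replicates, the kinesin clusters formed 976 sites, of which 861 had clusters of 1 replicate, 104 of 2 and 11 of all 3. Of these 11 sites, 8 had at least 1 base common to all replicates, and in the other 3 the clusters formed a chain without a shared base. All 11 lay in introns, 3 in KIF4A, 2 each in KIF1A and KIF2A, and 1 each in KIF1B, KIF11, KIF14 and KIF20B. These genes had between 30 and 206 clusters each, and a gene dense in clusters has more chances of overlap. By gene, 59 of 206 clusters of KIF1A, 42 of 134 of KIF4A, 23 of 64 of KIF2A and 11 of 74 of KIF11 were found in another replicate. KIF13A had 2 of 39 and KIF16B 2 of 35.

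Both KIF1A sites printed above lie beside each other in intron 38, which is 10122 nt long. The upstream one had 29, 14 and 91 reads in replicates 1, 2 and 3, and its cluster in replicate 3 was the kinesin cluster with most reads in that library. The downstream one had 9, 53 and 36 reads. The KIF2A site had 15, 35 and 12 reads, without a base common to all replicates. The KIF11 site had 10, 23 and 19 reads and the KIF1B site 7, 20 and 25, equal in sum. The lowest replicate of each of these 5 sites had between 7 and 14 reads, and the replicate with most reads differed between sites.

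Heavily read clusters did not always recur. The leading kinesin cluster of replicate 1, in KIF15 intron 1, had 44 reads, 11 of them distinct, and the leading one of replicate 2, in KIF5B intron 2, had 87 reads, 39 of them distinct. Neither overlapped a cluster of another replicate. The KIF15 stretch shown above held 0 matches to ATCTT and TCTTC, and the KIF5B stretch held 3.

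Sequence composition was compared in windows of 41 nt at the cluster midpoint and in windows 1000 nt away on the same strand. Deposited clusters hold at least 2 conversion locations, and so T, while the windows away were not chosen for T. How much this selection adds to the differences below was not tested. TCTTC was also taken from an earlier account of these data. ATCTT occurred in 8.12%, 8.12% and 8.91% of kinesin windows (8.39% ± 0.457, SD, n = 3) against 5.05% ± 0.346 away (SD, n = 3), a difference present in each replicate. In other gene-annotated clusters it occurred in 8.19% ± 0.594 at the midpoint and 5.22% ± 0.102 away (SD, n = 3). TCTTC occurred in 13.2%, 9.39% and 11.4% of kinesin windows (11.3% ± 1.89, SD, n = 3) against 4.42% ± 0.219 away (SD, n = 3), and in 13.5% ± 0.929 and 5.78% ± 0.0114 for other clusters (SD, n = 3). C and T together made up 57.6% ± 1.23 of kinesin windows against 52.5% ± 0.233 away (SD, n = 3), close to the 57.2% ± 0.795 and 52.3% ± 0.0585 of other clusters (SD, n = 3). The kinesin values overlapped those of other genes at the midpoint in all 3 measures.

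Members differed in composition. KIF1A, with 55.9% G and C in its windows, had ATCTT in 9 of 206, or 4.37%, against 1.94% away. KIF4A, with 41.01% G and C, had it in 12 of 134, or 8.96%, against 7.09% away, and KIF1B in 12 of 144, or 8.33%, against 5.21%. KIF16B had it in 7 of 35, KIF5B in 6 of 35 and KIF18A in 6 of 42. KIF11 had it in 7 of 74, or 9.46%, below the 11.5% in its windows 1000 nt away. These counts are small, and windows of 1 gene share its base composition.

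T-to-C changes were present in 89.6%, 87.3% and 87.9% of reads in kinesin clusters (88.3% ± 1.20, SD, n = 3) and in 86.4% ± 0.626 of reads in other gene-annotated clusters (SD, n = 3), and the ranges did not overlap. The minimum of 4 such reads per cluster raises this share where reads are few. Within the family, reads in introns carried the change in 89.1% ± 0.895 of cases and reads in 3′ UTRs in 72.7% ± 1.98 (SD, n = 3), with no overlap between replicates. The values of other genes were 87.5% ± 0.622 (introns) and 78.3% ± 0.741 (3′ UTRs; SD, n = 3). The median 3′ UTR cluster of the family had 12 reads and the median intron cluster 9, and the part of depth in this difference was not tested. Among the leading genes the share was 84.3% ± 2.66 in KIF1A, 89.1% ± 1.45 in KIF1B and 87.0% ± 4.83 in KIF4A (SD, n = 3).

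Other genes of the microtubule motor machinery were counted from a list of 37 grouped by function. Of these, 28 had clusters in every replicate, and KLC3, KIFC2 and DYNLT3 had none and were not tested. Of the 34 tested, 13 held more clusters than expected from span and 10 fewer (edgeR, against 23.5% and 43.4% of all genes tested), and the median log2 ratio was -0.42. Of 17 genes of dynein, the motor that walks towards microtubule minus ends, and of its activator dynactin, 6 held more and 3 fewer. Of 10 cargo adaptors 4 held more and 4 fewer, of 6 kinesin light chains and accessory genes 1 and 2, and of the 4 kinesins outside the naming rule (KIFC1, KIFC2, KIFC3 and CENPE) 2 and 1. The 5 with most normalised reads were BICD1, a dynein adaptor, with 554, 429.9 and 581, TRAK1, which links mitochondria to KIF5 motors, with 178, 347 and 308, KLC1, a kinesin-1 light chain, with 246, 206 and 338, DCTN5, a dynactin subunit, with 288, 161 and 231, and SPAG9, a scaffold that ties cargo to motors, with 231, 181 and 226. BICD1 stood above its expected number of clusters with a log2 ratio of 1.81 (SE 0.13, edgeR adjusted p = 1.50e-12), while KLC1 at 0.27 (SE 0.20) was not called (edgeR adjusted p = 0.224).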

How the data were processed

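MATR3 PAR-CLIP clusters of 3 replicates of wild-type HEK293 cells were analysed as deposited. Per the file headers, the authors gave for each cluster its position, annotation class, gene name, sequence, whole read counts, distinct reads and conversion counts, not normalised, and the fraction of reads with T-to-C. The build is hg38, per the submitters' processing notes, and all 1110 kinesin sequences equalled hg38. The aligner, cluster caller and annotation release are not given in the sources used here. Clusters were called in each replicate separately. The samples are labelled as biological replicates, and nothing states separate cultures, so p-values measure the spread between these libraries.

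Spans and introns came from GENCODE 44, to which 92.2% ± 0.25 of gene names per file matched (SD, n = 3). Expected clusters per gene came from a Poisson spline with 3 degrees of freedom on log span, fitted in each replicate to protein-coding genes with a cluster. Observed numbers were tested against them with edgeR 4.0.16 in R 4.3.3. Because its test function takes no model of an intercept alone, the quasi-likelihood F statistic was computed from the fitted deviances, and the procedure was checked on simulated counts. Each SE given with an edgeR log2 ratio is that ratio's absolute value divided by the square root of F, not a separate estimate. The threshold was an adjusted p of 0.05. DESeq2 1.42.0 and limma 3.58.1 served as alternatives.

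The members and all lists were chosen with earlier results of these data known. Genes named with values were the 10 with the largest geometric mean of normalised reads and the 5 densest, every member called at 2-fold, and the leading clusters and sites of all replicates. Other members and the introns were picked for naming with their values in view. A single site that this rule selects is not reported here.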

Additional observations from a re-analysis of the deposited data

How the results depend on the processing

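No paired analysis was possible because the libraries form a single group. Of 348 single-gene values recomputed over the alternatives, 284 kept their direction and their side of the threshold, 45 lost a call, 7 gained one and 12 changed sign, 0 of them in a called member. Of 21 called members 7 kept their call in every alternative run. The count of 7 members with an excess was 4 with clusters of at least 10 reads, 4 with clusters of at least 3 distinct reads, and 4 to 6 with a replicate left out. With all protein-coding genes fitted, those without clusters included, the log2 ratio rose by a median of 0.56 over 11165 genes. In that fit 39 members were tested, including the 9 without clusters, and 9 were above and 19 below expectation. KIF16B and KIF20A lost their calls in it (edgeR adjusted p = 0.646 and 0.374). These counts cover more members than the 30 of the main test, and the share over all genes is not given. That fit turned the log2 ratio to 0.049 in KIF13A, 0.18 in KIF14, 0.50 in KIF18A, 0.048 in KIF1C, 0.34 in KIF22, 0.42 in KIF2C and 0.24 in KIF3B. For KIF5B it was -0.22 with at least 10 reads and -0.18 with at least 3 distinct reads. With a replicate left out it lay between -0.16 and 0.10 for KIF18A, -0.042 and 0.39 for KIF20B, and -0.079 and 0.31 for KIF5B. The 14 members below expectation were 6 by DESeq2, 9 with reads in place of clusters, and 9 to 10 with a replicate left out. DESeq2's normalisation factors were rescaled to its requirement after a first count had been seen.

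The share in introns was 90.8% with clusters of at least 10 reads. The median density was 4.69 clusters per 100 kb with at least 10 reads, 7.17 with at least 3 distinct reads, 14.5 per 100 kb of intron length, and 9.72 to 13.5 with a replicate left out. Kinesin reads numbered 3015 per 1000000 gene-annotated reads and 2660 per 1000000 of all reads in clusters. The share found elsewhere was 19.2% with at least 10 reads, 25.1% with at least 3 distinct reads, 11.7% when 50% of both clusters had to overlap, and 11.4% to 13.1% with a replicate left out, which leaves 1 other replicate to overlap. The moved share was 3.62% at that overlap, 15.9% at 200 nt, 6.06% at 5000 nt, and 5.52% to 6.61% with a replicate left out. ATCTT occurred in 9.15% of windows with at least 10 reads, 5.99% of 31 nt windows and 9.89% of whole clusters. The T-to-C share was 84.5% with at least 10 reads, with a median over clusters of 100%, and conversion per T position, another quantity, was 10.8%.

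Weak sites below the deposited minimum, total depth, transcript abundance and reads from repeated sequence were not examined.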
